A study of Mus musculus with 2 samples.

Results

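The Nr2f2 neurons are cells of the embryonic mouse brain, labelled as excitatory neurons, that hold transcripts of *Nr2f2*. They were chosen by measured values, 1 cell barcode at a time, from counts of UMIs (each a distinct captured transcript molecule). A member held at least 2 UMIs of *Nr2f2* and at least 3 of *Neurod2* and *Neurod6* together, at most 1 each of *Tfap2d*, *Nr4a2* and *Neurod1*, at most 1 of *Gad1* and *Gad2* together, at most 4 each of *Unc5d* and *Hs3st4*, and 0 of *Fezf2*. By this rule 236 of 22347 barcodes kept on quality were members. Embryo 4 held 118 of 10879 (1.08%, exact 95% interval 0.899 to 1.30) and embryo 5 held 118 of 11468 (1.03%, 0.852 to 1.23), so the embryos' intervals overlap. The intervals cover counting error only.

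The study profiled single cells of 2 mouse embryos on embryonic day 16.5, with 1 10x Genomics 3′ v3.1 library per embryo after papain dissociation. Both embryos are WT controls of the EomesMllt3 line, an Eomes-Cre mouse line, and carry titles that begin EoMltt3 E16.5 WT. The sources give C57BL/6J as the strain, and name the tissue as brain hemispheres in one place and as dissected cortex in another. With 1 genotype, 1 age and no treatment, every comparison here is between classes of cells within the same 2 embryos, and whether either embryo carried the Cre transgene is not given. The files held 12825 barcodes and 124318613 UMIs for embryo 4, and 12289 barcodes and 117679925 UMIs for embryo 5, over 32285 genes. Barcodes with under 1000 detected genes (1772 and 765) or over 10% mitochondrial UMIs (174 and 56) were left out, and the median kept barcode had 10329 UMIs in embryo 4 and 9199 in embryo 5. The libraries shared 46 barcode sequences, of which 0 belonged to a member.

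*Nr2f2* encodes COUP-TFII, an orphan nuclear receptor that binds DNA and in the developing forebrain is known from interneurons of the caudal ganglionic eminence, from Cajal-Retzius cells, from vascular cells, and from excitatory neurons of caudal and ventral pallium such as the amygdala and the temporal cortex. Nuclear receptors act with corepressors and cofactors, and the related receptor gene *Nr2f1* sets up areas across the cortical sheet. *Tafa1* and *Tafa2* encode small secreted proteins of the TAFA family, and *Epha6* encodes a receptor for ephrins, ligands that guide axons and sort neurons by contact.

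*Nr2f2* (ENSMUSG00000030551, chromosome 7, 70351946 to 70366746 on mm10) had a median of 4 UMIs per member in embryo 4 and 5 in embryo 5, and a highest value of 28 and 33. The members just inside the limit, with 2 *Nr2f2* UMIs, numbered 38 and 27, and those with 5 or more numbered 57 and 60. Of the barcodes just outside it, 68 and 63 met every other limit with 1 *Nr2f2* UMI. Before the other limits, 1661 kept barcodes of embryo 4 and 1380 of embryo 5 held 2 or more *Nr2f2* UMIs, and the requirement for *Neurod2* and *Neurod6* left 1036 and 857. The limit on *Gad1* and *Gad2* then left 960 and 806, and that on *Neurod1*, a gene of newly formed excitatory neurons, 574 and 492. The limit on *Unc5d*, a netrin receptor gene of migrating neurons, left 345 and 319. Those on *Tfap2d*, *Nr4a2* and *Hs3st4* left 286 and 270, then 264 and 245, then 243 and 233. The last limit, on the deep-layer factor gene *Fezf2*, left 118 and 118. Taken singly, the *Fezf2* limit kept out 125 and 115 barcodes that met every other limit, the *Neurod2* and *Neurod6* minimum 240 and 232, the *Unc5d* limit 89 and 83, and the *Tfap2d* limit 36 and 35. The members are therefore a narrow slice of the *Nr2f2*-holding barcodes, and most of the barcodes with 2 or more *Nr2f2* UMIs lie outside it.

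Adding up the UMIs of each class within an embryo gave 1 sum per embryo, and the members were set against 3 other classes that share no cell with them. The Nr2f2-zero neurons met every limit except that they held 0 *Nr2f2* UMIs (519 in embryo 4 and 753 in embryo 5). The Tfap2d neurons (258 and 285) held at least 2 *Tfap2d* UMIs and the Nr4a2 neurons (204 and 243) at least 2 *Nr4a2* UMIs, under the same *Neurod2*, *Neurod6*, *Neurod1* and *Gad* limits, while the limits on *Unc5d*, *Hs3st4* and *Fezf2* applied to the members and the Nr2f2-zero neurons only. The members' sums held 1381528 and 1363766 UMIs, the Nr2f2-zero sums 5081290 and 6816122, the Tfap2d sums 2680658 and 2632045, and the Nr4a2 sums 3007924 and 3335451. The median member had 11515 UMIs in embryo 4 and 10565 in embryo 5, above the Nr2f2-zero neurons (9647 and 8916) and the Tfap2d neurons (9274.5 and 7861) and below the Nr4a2 neurons (13715 and 12062). Median mitochondrial shares of the members were 3.097% and 2.67%. Levels below are CPM, a gene's UMIs scaled to the total of its sum, with the embryo 4 value first, and on this scale a gene is compared across classes and not with other genes.

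The label's markers were read as a description, without a test. *Nr2f2* itself stood at 516 and 569.7 CPM in the members, 0 and 0 in the Nr2f2-zero neurons by choice, 356 and 275 in the Tfap2d neurons and 47.2 and 43.5 in the Nr4a2 neurons. *Tafa1* (ENSMUSG00000059187, chromosome 6, 96113154 to 96657204) was at 1987 and 2904 CPM in the members, against 133 and 72.3 in the Nr2f2-zero, 1229 and 1029 in the Tfap2d and 49.9 and 198 in the Nr4a2 neurons. *Tafa2* (ENSMUSG00000044071, chromosome 10, 123264024 to 123741204) was at 1768 and 2136, against 311 and 332, 1076 and 849 and 183 and 261 in the same order. Both TAFA genes were highest of the 4 classes in the members, in each embryo. *Epha6* (ENSMUSG00000055540, chromosome 16, 59641433 to 60610911) was at 193 and 181 CPM in the members, above the Nr2f2-zero (51.8 and 35.2) and Nr4a2 neurons (46.5 and 30.9) and below the Tfap2d neurons (408 and 353), so it does not set the members apart from the Tfap2d neurons. Of the 118 members of each embryo, 31 and 36 held a UMI of each of *Tafa1*, *Tafa2* and *Epha6*, and 20 and 18 held none of them. A *Tafa2* UMI was found in 76.3% and 78.8% of members, against 3.70% and 14.7% of the 27 and 34 cells of the cluster led by the microglia genes *C1qa*, *C1qb* and *C1qc*, whose median depths were 9047 and 9355.5 UMIs. The excitatory side of the label is set in part by the rule, as *Neurod1*, *Neurod2* and *Neurod6* are 3 of the 8 listed excitatory markers. *Neurod2* was at 431 and 422 CPM and *Neurod6* at 603 and 599.8 CPM in the members, by choice of the rule. Each of the 8 was detected in the members, with summed levels of 1816 and 1929 CPM, the lowest of the 4 classes in both embryos (3329 and 3507 in the Nr2f2-zero, 2114 and 2258 in the Tfap2d and 2155 and 2374 in the Nr4a2 neurons).

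Without the rule's genes, the kept cells fell into 28 clusters. The largest group of members, 87 in embryo 4 and 86 in embryo 5 (73.7% and 72.9%), lay in 1 cluster of 745 and 803 cells led by *Tafa1*, *Tafa2*, *Thsd7a*, *Epha6*, *Adgrl3* and *Hs6st3*, 3 of which are the label's own markers, so the cluster is no independent check of the label. Members were 11.7% and 10.7% of that cluster, which also held 151 and 160 Tfap2d neurons, 16 and 25 Nr2f2-zero neurons and 4 and 8 Nr4a2 neurons. The rule thus draws a fraction of a larger *Tafa1*-led population, and the remaining members were spread thinly, over 15 clusters in embryo 4 and 13 in embryo 5 when the main one is counted. The next clusters held at most 7 members of an embryo. A cluster led by *Reln* and *Trp73* held 4 and 3 members, and one led by the mural gene *Rgs5* held 1 and 2. Likely doublets, found by simulating mixed cells, were marked and kept: 7 of 118 and 6 of 118 members (5.93% and 5.08%) carried the mark, against 8.70% and 9.17% of kept barcodes.

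Markers of other cells were followed through the members' sums. The Cajal-Retzius markers (9 of 9 detected in each embryo) summed to 581 and 320 CPM in the members, *Reln* being the most abundant at 434 and 194, against 54.1 and 60.2 CPM in the Nr2f2-zero neurons. *Reln*, a secreted matrix protein gene of Cajal-Retzius cells, had a UMI in 7.63% and 4.24% of members, and 5 members of each embryo in the *Reln*-led and *Rgs5*-led clusters held 99.2% and 99.2% of the members' *Reln* UMIs. The mural and fibroblast markers summed to 76.0 and 117 CPM (6 and 10 of 10 detected, *Rgs5* the most abundant, *Col1a1*, *Col1a2*, *Col3a1* and *Lum* at 0 in embryo 4). The same 5 and 5 members held 98.3% and 98.1% of the *Rgs5* UMIs. Both signals thus sat in a handful of members and not across them.

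The lists of other cell types were read the same way. The 8 endothelial markers summed to 12.3 and 11.7 CPM in the members, with *Cldn5* the most abundant in embryo 4 and *Esam* in embryo 5, *Flt1* at 0 in both, *Cdh5* at 0 in embryo 4 and *Tek* at 0 in embryo 5. The 12 markers of interneurons from the caudal ganglionic eminence, a source of inhibitory neurons that hold *Nr2f2*, summed to 81.8 and 38.9 CPM (8 and 9 detected), mostly *Adarb2*. *Sp8* and *Htr3a* were at 0 in both embryos, with *Slc32a1* and *Npas1* at 0 in embryo 4 and *Prox1* in embryo 5. The markers of interneurons from the medial eminence (7 of 8 detected, *Lhx6* at 0) summed to 220.0 and 83.6 CPM, led by *Erbb4* in embryo 4 and by *Sox6* in embryo 5. Of the microglia markers 3 of 8 were detected, at summed 7.24 and 5.87 CPM, led by *P2ry12*, with *C1qa*, *C1qb*, *C1qc*, *Tmem119* and *Aif1* at 0. Oligodendrocyte precursor markers summed to 53.6 and 38.1 CPM, almost all *Cspg5*, with *Olig1* at 0 in both embryos and *Olig2* and *Sox10* at 0 in embryo 4. Erythroid markers (5 of 5 detected, *Hbb-bs* the most abundant) summed to 188 and 307 CPM, under the Nr2f2-zero neurons' 421 and 1485. Thalamic markers summed to 98.4 and 147 CPM, led by *Rora*, with *Gbx2* at 0 in both embryos and *Six3* in embryo 4. Radial glia markers (8 of 8 detected) summed to 332 and 257 CPM, against 534 and 485 in the Nr2f2-zero neurons, and cycling genes (8 of 8) to 185 and 197 against 545 and 567. Results without neurons that hold a vascular or caudal eminence UMI, and without the vascular and *Reln*-led clusters, are given below, and the part of the other markers in the results was not tested.

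The first comparison asks what else differs between otherwise like neurons with and without *Nr2f2* UMIs. Among 12302 genes tested (the 13 described genes that passed the filter on low counts were left out), 840 were higher in the Nr2f2 neurons at an edgeR adjusted p under 0.05 (6.83%) and 784 were lower (6.37%), with a median log2 fold change of -0.01 over the genes tested. The counts shrank when a library was left out, which leaves 1 sum in a class. Without the members' sum of embryo 4 they were 533 higher and 445 lower, and without that of embryo 5 they were 460 and 452. Without the Nr2f2-zero sum of embryo 4 they were 514 and 520, and without that of embryo 5 they were 494 and 498. Drawing Nr2f2-zero neurons to the members' number and depth gave 512 higher genes, of which 486 were among the 840, and leaving out neurons with any UMI of a vascular or caudal eminence marker gave 502 higher and 473 lower. DESeq2 gave 461 lower. The comparisons with the 3 classes share the members' sums, and log2 fold changes are given ± 1 standard error with 2 embryos per class.

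Genes were named by size among those called, with at least 50 CPM in both embryos of the higher class, and predicted genes were passed over, among them *B130024G19Rik* with a log2 fold change of 7.20 and *Gm29260* with -3.84. The largest rise so named was in *Slit3* (ENSMUSG00000056427, chromosome 11, 35121456 to 35708507), a secreted ligand of Robo receptors that repels axons. It stood at 579 and 649 CPM in the members and 36.4 and 40.5 in the Nr2f2-zero neurons, which do not overlap (log2 fold change 4.01 ± 0.271, edgeR adjusted p = 1.15e-06). *Slit2* (ENSMUSG00000031558, chromosome 5, 47981291 to 48307735), another Slit ligand, was at 430.0 and 467 against 65.3 and 66.2 CPM (log2 fold change 2.79 ± 0.148, edgeR adjusted p = 2.08e-07). A *Slit3* UMI was found in 61.0% and 69.5% of members and in 3.70% and 2.94% of the microglia-led cluster, and a *Slit2* UMI in 78.0% and 77.1% against 3.70% and 5.88%, so both ligands reach a majority of members. Shares for *Slit3* were 7.71% and 7.17% in the Nr2f2-zero, 27.1% and 20.7% in the Tfap2d and 25.5% and 32.5% in the Nr4a2 neurons. For *Slit2* they were 23.7% and 20.2%, 66.3% and 53.0%, and 20.6% and 21.0% in the same order. A majority of Tfap2d neurons thus held *Slit2* too. These shares are not matched for depth. *Nell1* (ENSMUSG00000055409, chromosome 7, 49975350 to 50863289), which encodes a secreted protein with EGF-like repeats, was at 56.5 and 104 against 4.13 and 5.72 CPM (log2 fold change 4.01 ± 0.355, edgeR adjusted p = 8.75e-06). *St6galnac5* (ENSMUSG00000039037, chromosome 3, 152819885 to 152982210), a sialyltransferase gene of ganglioside synthesis, was at 151 and 216 against 14.8 and 20.7 CPM (log2 fold change 3.37 ± 0.238, edgeR adjusted p = 1.57e-06). In each of these genes both member sums lay above both Nr2f2-zero sums. Against Nr2f2-zero neurons drawn to the members' depth the log2 fold changes were smaller, at 3.13 for *Slit3*, 2.70 for *Nell1* and 2.67 for *St6galnac5*, each still called.

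*Thsd7a* (ENSMUSG00000032625, chromosome 6, 12311608 to 12749253), with thrombospondin domains, was at 349.6 and 257 CPM against 24.6 and 42.4 (log2 fold change 3.17 ± 0.216, edgeR adjusted p = 1.22e-06). The adhesion gene *Ncam2* (ENSMUSG00000022762, chromosome 16, 81200697 to 81624290) was at 277 and 394 against 52.0 and 38.0 CPM (log2 fold change 2.93 ± 0.192, edgeR adjusted p = 9.23e-07). The cation channel gene *Trpm3* was at 216 and 289 against 39.6 and 36.1 CPM (log2 fold change 2.76 ± 0.181, edgeR adjusted p = 9.23e-07). The sums of the 2 classes do not overlap for these 3 genes. The X-linked protocadherin gene *Pcdh11x* was at 86.1 and 136 against 18.3 and 15.4 CPM, differing by 2.75 ± 0.230 on the log2 scale (edgeR adjusted p = 6.23e-06). *Csmd3*, with CUB and sushi domains, was at 541 and 754 against 121 and 114 CPM, differing by 2.49 ± 0.1505 on the log2 scale (edgeR adjusted p = 5.58e-07). *Lingo2*, a leucine-rich repeat protein gene, was at 945 and 1216 against 246 and 196 CPM, differing by 2.32 ± 0.170 on the log2 scale (edgeR adjusted p = 2.04e-06). Here too both member sums lay above both Nr2f2-zero sums. The 15 genes named by size end with *Fign*, *Gabrg3*, *Lrp1b* and *Trps1*, with log2 fold changes of 2.41, 2.28, 2.28 and 2.25, and *Reln*. Without neurons holding a vascular or caudal eminence UMI *Pcdh11x* was at 3.45, *Fign* at 3.14 and *Trps1* at 2.87 on the log2 scale.

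*Reln* differed from the rest. It stood at 434 and 194 CPM in the members and 28.5 and 31.1 in the Nr2f2-zero neurons (log2 fold change 3.41 ± 0.306, edgeR adjusted p = 9.94e-06). When the cells of the vascular and *Reln*-led clusters were left out of every class, an alternative chosen after seeing the data, its log2 fold change turned to -3.40, and without neurons holding a vascular or caudal eminence marker UMI it was 1.68 and no longer called. Without the members' sum of embryo 4 it was 2.73. Adjusted p over its alternatives ran from 2.83e-146 to 0.15 (edgeR or DESeq2). The other 14 of the 15 higher genes and each of the 15 lower ones kept their calls under every alternative run on them. Without those clusters 113 and 113 members were left, and 695 of the 840 higher and 717 of the 784 lower genes were called again in the same direction.

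**Figure D1:**
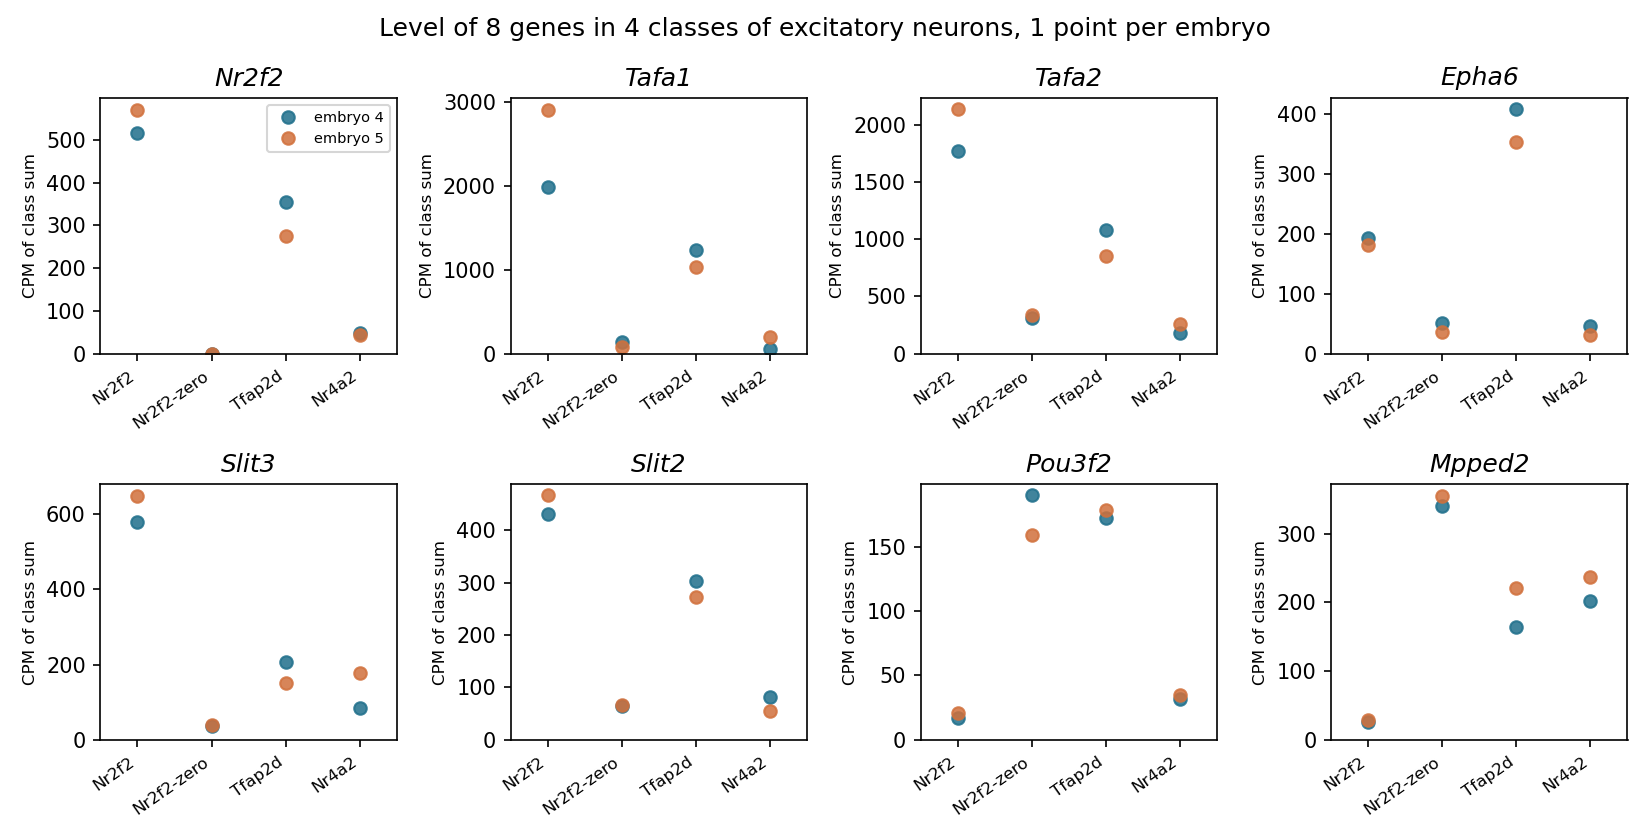
CPM of 8 genes in the 4 classes, 1 point per embryo, each gene on its own axis. *Slit3* and *Slit2* stand above the Nr2f2-zero neurons in both embryos, and *Pou3f2* and *Mpped2* below them.

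The lower genes named by size were led by *Mpped2* (ENSMUSG00000016386, chromosome 2, 106693181 to 106868361), a metallophosphoesterase gene, at 26.1 and 28.6 CPM in the members against 339.7 and 355 (log2 fold change -3.65 ± 0.187, edgeR adjusted p = 1.58e-07). *Pou3f2* (ENSMUSG00000095139, chromosome 4, 22482095 to 22488366), a POU-domain factor gene of upper-layer neurons and their progenitors, was at 16.6 and 20.5 against 189.9 and 159 CPM (log2 fold change -3.20 ± 0.160, edgeR adjusted p = 1.56e-07). *Bmpr1b* (ENSMUSG00000052430, chromosome 3, 141837135 to 142169585), a BMP receptor gene, was at 51.4 and 24.2 against 328 and 332 CPM (log2 fold change -3.10 ± 0.248, edgeR adjusted p = 4.55e-06), and its log2 fold change without the members' embryo 4 sum was -3.73. All member sums of these 3 genes were below both Nr2f2-zero sums. *Btbd11* was at 18.8 and 32.3 against 188 and 220.4 CPM (log2 fold change -2.98 ± 0.208, edgeR adjusted p = 1.39e-06). The SOX factor gene *Sox6* was at 44.2 and 25.7 against 279 and 236 CPM (log2 fold change -2.86 ± 0.173, edgeR adjusted p = 5.58e-07). *Foxp2*, a forkhead factor gene of deep-layer neurons, was at 39.8 and 24.9 against 229 and 167 CPM (log2 fold change -2.58 ± 0.241, edgeR adjusted p = 1.3e-05).

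Genes of progenitors were among the lowered ones, and the Nr2f2-zero neurons held more cells of progenitor clusters. Of the 519 and 753 Nr2f2-zero neurons, 50 and 45 lay in a cluster with *Eomes* and *Neurog2* among its leading genes, 28 and 43 in one led by *Neurog2*, and 21 and 33 in one with *Top2a* and *Mki67* among its leading genes, against 1 and 4, 0 and 0, and 0 and 1 members. The part of these cells in the lower progenitor and cycling genes was not tested. *Eomes* (ENSMUSG00000032446, chromosome 9, 118478186 to 118486132), the T-box factor gene of intermediate progenitors, was at 13.8 and 19.1 CPM in the members and 128 and 109 in the Nr2f2-zero neurons (log2 fold change -2.82 ± 0.381, edgeR adjusted p = 0.000258). *Neurog2* (ENSMUSG00000027967, chromosome 3, 127632733 to 127635636), a proneural factor gene, was at 13.0 and 29.3 against 171 and 107 CPM (log2 fold change -2.68 ± 0.359, edgeR adjusted p = 0.000247) and at -3.40 on the log2 scale without the members' embryo 5 sum. *Ezr*, which encodes a linker of membrane and actin, was at 10.1 and 16.1 against 97.2 and 87.1 CPM (log2 fold change -2.79 ± 0.198, edgeR adjusted p = 1.6e-06). *Ppp1r16b*, a phosphatase regulator gene, was at 15.2 and 5.87 against 57.7 and 64.0 CPM (log2 fold change -2.51 ± 0.289, edgeR adjusted p = 7.77e-05), with the 2 member sums apart, and at -3.33 without the members' embryo 4 sum. The other 5 of the 15 named by size were *Thsd4* (-2.94), *Hs3st1* (-2.81), *Tmtc1* (-2.63), *Creb5* (-2.52) and *Lhfp* (-2.49), so the 15 spanned log2 fold changes from -3.65 to -2.49.

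The size of the lower genes' differences moved with the *Nr2f2* limit. With 1 *Nr2f2* UMI enough for a member, log2 fold changes were smaller by over 1.5 times on the linear scale for *Mpped2* (-2.39), *Pou3f2* (-2.17), *Bmpr1b* (-1.93), *Btbd11* (-1.92), *Sox6* (-1.75), *Foxp2* (-1.79), *Eomes* (-1.63), *Neurog2* (-1.64), *Ezr* (-2.04), *Ppp1r16b* (-1.56), *Hs3st1* (-2.04), *Tmtc1* (-1.65) and *Creb5* (-1.83), each still called. With 3 or more they were larger by over 1.5 times on that scale for *Mpped2* (-4.24), *Pou3f2* (-3.82) and *Ppp1r16b* (-3.30). At matched depth *Neurog2* was at -2.06. *Lhfp* was at -3.36 without likely doublets, -4.08 without vascular and caudal eminence UMIs and -3.96 without the vascular and *Reln*-led clusters.

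**Figure D2:**
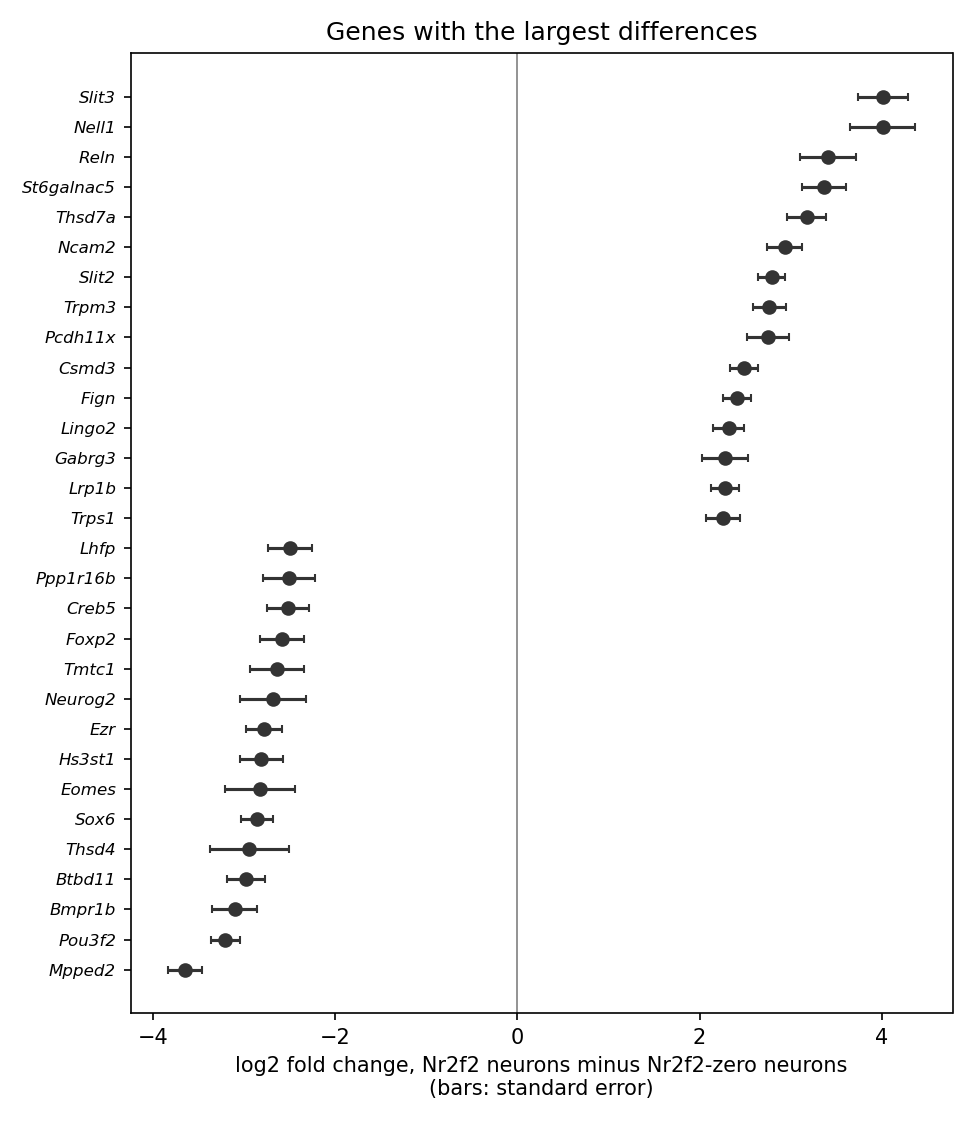
Log2 fold change of the 30 genes named by size, Nr2f2 neurons against Nr2f2-zero neurons, each point a gene and each bar its standard error over 2 embryos per class. The 15 higher genes lie between 2.25 and 4.01 and the 15 lower ones between -3.65 and -2.49.

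Fixed gene lists were then read by their counts, beside 6.83% higher and 6.37% lower over the genes tested, and by their medians beside -0.01. Genes given below by a fold change alone were named after their values were seen, and the calls of list genes outside the naming rule were kept less often over the alternatives than those of the genes it names. Of 25 nuclear receptor and cofactor genes tested, 4 were higher and 5 lower (median 0.09). *Nr2f1*, the paralog of *Nr2f2*, was at 389 and 416 CPM against 148 and 120.3 (log2 fold change 1.61 ± 0.130, edgeR adjusted p = 4.71e-06). *Zfpm2*, a cofactor of GATA factors and nuclear receptors, was at 429 and 304 against 101 and 69.1 CPM (log2 fold change 2.14 ± 0.178, edgeR adjusted p = 6.23e-06). Both were raised in each embryo, as were *Nr4a3* (1.16) and the thyroid hormone receptor gene *Thra* (0.42). The corepressor gene *Bcl11a* was at 304 and 393 against 557 and 641 CPM (log2 fold change -0.76 ± 0.134, edgeR adjusted p = 0.00209). *Rorb*, an orphan receptor gene of sensory cortical areas, was at 107 and 66.0 against 166 and 202 CPM (log2 fold change -1.07 ± 0.267, edgeR adjusted p = 0.0182). Its call was lost with DESeq2 (-1.06) and without the embryo 5 sum of the members (-0.78) or of the Nr2f2-zero neurons (-0.90), with adjusted p of 2.6e-15 to 0.195 over its alternatives (edgeR or DESeq2). *Nr2e1* (-1.76), *Nr3c1* (-1.60, not called by DESeq2) and *Thrb* (-1.67) were the remaining lower ones.

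Of 4 retinoic acid genes tested of 12 listed, the degrading enzyme gene *Cyp26b1* was higher, at 8.69 and 4.40 CPM against 0.590 and 0, and the median was -0.20. Of 17 area patterning factor genes 4 were higher and 6 lower (median -0.16), the higher ones being *Nr2f1*, *Lmo3*, *Lmo4* and *Bhlhe22*. *Lmo3*, a LIM-only cofactor gene, was at 308 and 188 CPM against 66.1 and 57.1 (log2 fold change 2.03 ± 0.201, edgeR adjusted p = 2.28e-05). *Id2*, which blocks basic helix-loop-helix factors, was at 313 and 218 against 516 and 549.6 CPM (log2 fold change -0.99 ± 0.155, edgeR adjusted p = 0.00092). Of 24 projection neuron identity factor genes 3 were higher and 14 lower (median -0.67), 14 of 24 being a larger share than the 6.37% over the genes tested. *Lmo4* was at 169 and 267 against 77.7 and 117 CPM (log2 fold change 1.17 ± 0.261, edgeR adjusted p = 0.00952), a call lost with DESeq2 (1.20) and without the members' embryo 5 sum (0.79) or the Nr2f2-zero embryo 4 sum (0.90), with adjusted p of 2.54e-19 to 0.166 over its alternatives (edgeR or DESeq2). *Zfpm2* above and *Tle4* (0.62) were the other higher ones.

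*Bhlhe22* was at 342 and 405 against 179 and 192 CPM (log2 fold change 1.03 ± 0.185, edgeR adjusted p = 0.00234) and was the higher one among 5 excitatory markers tested (median 0.18). *Slc17a6* (0.46, edgeR adjusted p = 0.159) and *Tbr1* (-0.29, edgeR adjusted p = 0.271) did not pass the threshold, although *Slc17a6* passed without the Nr2f2-zero embryo 4 sum (0.74), at matched depth (0.87), without likely doublets (0.63) and without vascular and caudal eminence UMIs (0.72).

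Among 15 claustrum and pallial amygdala genes tested, 7 were higher and 2 lower (median 0.61). Among those of at least 50 CPM in either class *Lmo3* had the largest rise, and *Lmo1*, another LIM-only gene, was at 145 and 154 CPM against 84.8 and 87.9 (log2 fold change 0.81 ± 0.108, edgeR adjusted p = 0.000228). *Sema5a*, a membrane semaphorin gene, was at 67.3 and 52.8 against 256 and 236 CPM (log2 fold change -2.01 ± 0.144, edgeR adjusted p = 1.6e-06), and the G protein subunit gene *Gnb4* was the other lower one (-1.11). Of 13 hippocampal field genes tested 4 were higher (*Lef1* at 1.12, *Lhx9* at 2.15, *Nrp2* at 1.77 and *Ociad2* at 0.67, the last not called by DESeq2), the median was 0.34, and edgeR called 0 lower, with 1 lower at an unadjusted p under 0.05 and 0 lower by DESeq2. Without the vascular and *Reln*-led clusters 5 were higher, *Lhx2* being the added one, *Emx2* was lower and the median was 0.36. *Nrp2*, a semaphorin coreceptor gene, was at 229 and 239 against 81.7 and 58.2 CPM (log2 fold change 1.77 ± 0.240, edgeR adjusted p = 0.000268). *Lhx2* was at 211 and 207 against 185 and 149 CPM and was not called (log2 fold change 0.34 ± 0.108, edgeR adjusted p = 0.0541), but passed with the embryos as a block (log2 fold change 0.35), without the Nr2f2-zero embryo 4 sum (0.49), with other size factors (0.36), when 1 *Nr2f2* UMI sufficed (0.39) and without the vascular and *Reln*-led clusters (0.36). Of 4 thalamic markers tested *Lhx9* was the higher one and the median was 0.65. Without the vascular and *Reln*-led clusters *Lhx9* was again higher, *Calb2* was lower and the median turned to -0.39. *Rora*, at 62.2 and 106 against 57.3 and 55.8 CPM, was not called (log2 fold change 0.60 ± 0.198, edgeR adjusted p = 0.0681), and passed with the block (0.60), with no filter on low counts (0.56) and without the members' embryo 4 sum (0.95).

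Guidance molecules are given by ligands and receptors. Of the TAFA genes beyond the label's, *Tafa5* alone was tested, at 203 and 213 CPM against 94.1 and 127 (log2 fold change 0.93 ± 0.156, edgeR adjusted p = 0.00146). Of 17 Slit, netrin and receptor genes 7 were higher and 4 lower (median 0.54). Without the vascular and *Reln*-led clusters 5 were higher, *Ntn1* and *Unc5b* no longer among them, 4 were lower and the median was 0.18. The ligand genes *Slit3* and *Slit2* were higher while the receptor genes *Robo1* and *Robo2* were lower. *Robo2* was at 787 and 627 against 2399.8 and 2454 CPM (log2 fold change -1.76 ± 0.112, edgeR adjusted p = 7.54e-07), and *Robo1* had a log2 fold change of -0.94. The netrin receptor gene *Dcc* was at 899.7 and 875 against 2896 and 2595 CPM (log2 fold change -1.61 ± 0.102, edgeR adjusted p = 7.54e-07), and the netrin gene *Ntn4* was the last of the lower ones (-1.89). The member and Nr2f2-zero sums of *Robo2* and *Dcc* do not overlap. Of 14 ephrin and Eph receptor genes 4 were higher and 2 lower (median 0.20). The receptor gene *Epha5* was at 2678 and 2303 against 1711 and 1541 CPM (log2 fold change 0.64 ± 0.0917, edgeR adjusted p = 0.000448), and *Epha4* was at 89.0 and 58.7 against 211 and 187 CPM (log2 fold change -1.40 ± 0.152, edgeR adjusted p = 4.64e-05). The ligand gene *Efna5* was at 26.8 and 8.80 against 84.0 and 62.4 CPM (log2 fold change -2.005 ± 0.310, edgeR adjusted p = 0.000801), at -3.00 without the members' embryo 4 sum, -2.68 without likely doublets, -2.97 without vascular and caudal eminence UMIs and -3.32 without the vascular and *Reln*-led clusters. *Efnb3* (1.01) and *Ephb1* (0.42, not called by DESeq2) rose as well.

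*Epha7* was at 201 and 205 CPM against 139 and 138 (log2 fold change 0.58 ± 0.126, edgeR adjusted p = 0.00863). Its call was lost without the members' embryo 5 sum (0.54) and without either Nr2f2-zero sum (0.57 without embryo 4, 0.58 without embryo 5), with adjusted p of 0.000288 to 0.068 over its alternatives (edgeR or DESeq2). Of 27 semaphorin, plexin and neuropilin genes 6 were higher and 3 lower (median 0.13). The semaphorin gene *Sema6a* was at 125 and 125 against 40.3 and 48.3 CPM (log2 fold change 1.51 ± 0.126, edgeR adjusted p = 6.27e-06), a rise in both embryos. The receptor gene *Plxna4* was at 1196 and 1082 against 1700.4 and 1875 CPM (log2 fold change -0.63 ± 0.186, edgeR adjusted p = 0.0409), and this call was lost with DESeq2 (-0.62) and other alternatives, among them each library left out (-0.69 and -0.58 without the members' sums of embryos 4 and 5, -0.72 and -0.54 without the Nr2f2-zero sums), with adjusted p of 2.29e-10 to 0.232 (edgeR or DESeq2). *Sema5a* above and *Sema7a* (-0.70, not called by DESeq2) were the other lower ones.

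Of 23 cadherin and protocadherin genes 7 were higher and 4 lower (median 0.01). Besides *Pcdh11x*, *Pcdh19* rose, at 129.6 and 118 CPM against 34.2 and 29.0 (log2 fold change 1.996 ± 0.133, edgeR adjusted p = 1.05e-06). *Cdh12* was at 143 and 70.4 against 488 and 517 CPM (log2 fold change -2.21 ± 0.285, edgeR adjusted p = 0.00018), *Cdh4* fell by less (-0.95), and *Cdh6* (-2.77) and *Pcdh10* (-0.62, not called by DESeq2) completed the lower ones. Of 16 contactin and IgLON genes 7 were higher and 3 lower (median -0.12). *Cntnap4* was at 174 and 131 against 46.6 and 52.7 CPM (log2 fold change 1.63 ± 0.143, edgeR adjusted p = 7.91e-06). *Cntnap2* was at 411 and 249 against 148 and 89.8 CPM (log2 fold change 1.504 ± 0.227, edgeR adjusted p = 0.000659), but at 0.39 and not called against Nr2f2-zero neurons drawn to the members' depth, the range of adjusted p over its alternatives being 3.16e-31 to 0.511 (edgeR or DESeq2). The IgLON gene *Opcml* was at 141 and 253 against 500.1 and 505 CPM (log2 fold change -1.33 ± 0.191, edgeR adjusted p = 0.000453) and at -0.74 when 1 *Nr2f2* UMI sufficed, with *Lsamp* (-0.77) and *Cntnap5b* (-1.06) the other lower ones, neither of them called by DESeq2. *Cntnap5c*, at 21.7 and 16.9 against 28.9 and 50.9 CPM, was not called (log2 fold change -1.05 ± 0.446, edgeR adjusted p = 0.16) except with the embryos as a block (-1.003) and with no filter on low counts (-1.09).

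Of 10 teneurin, latrophilin and Flrt genes, which pair across synapses, 4 were higher and 3 lower (median 0.02). The latrophilin gene *Adgrl3* was at 2588 and 2317 CPM against 953 and 894 (log2 fold change 1.43 ± 0.110, edgeR adjusted p = 3.4e-06), while its relative *Adgrl2* was at 252 and 228 against 576 and 527 (log2 fold change -1.18 ± 0.0995, edgeR adjusted p = 6.27e-06). The teneurin gene *Tenm1* was at 149 and 186 against 96.4 and 94.8 CPM (log2 fold change 0.83 ± 0.136, edgeR adjusted p = 0.00123), and not called for members with 3 or more *Nr2f2* UMIs (0.44). *Tenm3* was at 190.4 and 179.7 against 356 and 317 CPM (log2 fold change -0.84 ± 0.104, edgeR adjusted p = 0.00013), and not called when 1 *Nr2f2* UMI sufficed (-0.30). Adjusted p over the alternatives ran from 2.38e-08 to 0.153 for *Tenm1* and from 3.78e-11 to 0.147 for *Tenm3* (edgeR or DESeq2). *Flrt3* (0.65) and *Tenm2* (0.57) were also higher and *Tenm4* (-0.57) also lower, so teneurin and latrophilin genes were found on both sides.

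Of 23 glutamate receptor and transporter genes 10 were higher and 1 lower (median 0.46). The NMDA receptor subunit gene *Grin2a* was at 60.1 and 153 CPM against 28.1 and 25.4 (log2 fold change 2.02 ± 0.309, edgeR adjusted p = 0.000734), with embryo 5 well above embryo 4 in the members, and at 1.17 without the members' embryo 5 sum and 1.20 at matched depth. The metabotropic receptor gene *Grm7* was at 39.8 and 117 against 18.1 and 11.6 CPM (log2 fold change 2.45 ± 0.411, edgeR adjusted p = 0.00141). Its value was 3.05 without the members' embryo 4 sum and 1.45, no longer called, without that of embryo 5, and 1.65 at matched depth, with adjusted p of 4.31e-40 to 0.0525 over its alternatives (edgeR or DESeq2). The lower gene was *Gria2*, an AMPA receptor subunit, at 832 and 814 against 1334 and 1348 CPM (log2 fold change -0.68 ± 0.0895, edgeR adjusted p = 0.000207).

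Of 24 potassium channel genes 4 were higher and 4 lower (median 0.12), shares above the background on both sides. *Kcnb2* was at 969 and 1132 CPM against 441 and 378 (log2 fold change 1.38 ± 0.115, edgeR adjusted p = 6.23e-06). *Kcnq5* was at 129.6 and 105 against 552 and 620.4 CPM (log2 fold change -2.30 ± 0.159, edgeR adjusted p = 1.33e-06). *Kcnh8* was also higher (1.19) and its relative *Kcnh5* lower (-2.43), as *Kcnd2* (1.19) and *Kcnk2* (0.80) were higher and *Kcna1* (-2.05) and *Kcnn2* (-1.65) lower. Of 19 genes of maturing neurons 6 were higher and 1 lower (median 0.33). The neurofilament gene *Nefm* was at 155 and 232 against 50.6 and 37.9 CPM (log2 fold change 2.17 ± 0.258, edgeR adjusted p = 0.000102) and at 1.32 on the log2 scale at matched depth, and the GABA-A receptor subunit gene *Gabra2* was at 433 and 587 against 126 and 112 CPM (log2 fold change 2.13 ± 0.164, edgeR adjusted p = 3.4e-06). The splicing regulator gene *Rbfox1* was at 3322 and 3427 against 4262 and 4858 CPM (log2 fold change -0.41 ± 0.0885, edgeR adjusted p = 0.00751), and not called for members with 3 or more *Nr2f2* UMIs (-0.30), without the members' embryo 4 sum (-0.37) or without the Nr2f2-zero embryo 5 sum (-0.30), with adjusted p of 5.54e-07 to 0.086 over its alternatives (edgeR or DESeq2). *Syt1* was not called (-0.18, edgeR adjusted p = 0.321).

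Of 16 genes of young migrating neurons 1 was higher and 7 lower (median -0.44). The higher one, the tubulin gene *Tubb3*, was at 1478 and 1345 CPM against 1109.8 and 1085 (log2 fold change 0.38 ± 0.0947, edgeR adjusted p = 0.017). It was not called at matched depth (0.36), without neurons holding a vascular or caudal eminence UMI (0.28), without the members' embryo 4 sum (0.33) or without either Nr2f2-zero sum (0.38 without embryo 4, 0.38 without embryo 5), with adjusted p of 0.00191 to 0.135 (edgeR or DESeq2). *Dcx*, a microtubule protein gene of migrating neurons, was not called (0.23, edgeR adjusted p = 0.273). Each of the 6 intermediate progenitor markers was lower (median -2.21), summing to 91.9 and 103 CPM in the members and 577 and 404 in the Nr2f2-zero neurons. By edgeR 0 of these 6 were higher, also at an unadjusted p under 0.05 and by DESeq2.

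Of 8 cycling genes 5 were lower (median -1.68), and edgeR called 0 higher, as did an unadjusted p under 0.05 and DESeq2. *Hmgb2* was at 88.3 and 101 CPM against 316 and 318 (log2 fold change -1.72 ± 0.123, edgeR adjusted p = 1.6e-06), with -2.37 for members of 3 or more *Nr2f2* UMIs and -2.62 without likely doublets. *Top2a* was at 17.4 and 8.80 against 50.6 and 64.7 CPM (log2 fold change -2.12 ± 0.490, edgeR adjusted p = 0.0118), and not called without the members' sum of embryo 4 (-2.68) or embryo 5 (-1.74) or without neurons holding a vascular or caudal eminence UMI (-1.18), and larger at matched depth (-3.11), without likely doublets (-3.28) and with 3 or more *Nr2f2* UMIs (-3.64), with adjusted p of 2e-20 to 0.381 (edgeR or DESeq2). The other lower ones were *Ccnb1* (-2.55), *Cenpf* (-1.95) and *Mki67* (-1.64). Of 8 radial glia markers 1 was higher and 3 lower (median -0.83). *Vim* was at 93.4 and 77.0 against 226 and 173 CPM (log2 fold change -1.20 ± 0.226, edgeR adjusted p = 0.00317), and *Pax6* fell too (-1.61). *Fabp7* was at 109 and 75.5 against 170.4 and 182 CPM (log2 fold change -0.91 ± 0.214, edgeR adjusted p = 0.0132), but at 0.31 when 1 *Nr2f2* UMI sufficed, at -0.04 without vascular and caudal eminence UMIs, and uncalled without the members' embryo 5 sum (-0.69) or the Nr2f2-zero embryo 5 sum (-0.85). *Slc1a3* was at 78.2 and 63.8 against 42.7 and 47.5 CPM (log2 fold change 0.67 ± 0.189, edgeR adjusted p = 0.0343), a call lost when any of the 4 sums was left out (0.53 and 0.79 without the members' sums of embryos 4 and 5, 0.58 and 0.77 without the Nr2f2-zero sums), with DESeq2 (0.68), at matched depth (0.58) and for members with 3 or more *Nr2f2* UMIs (0.01). It was at 1.29 without vascular and caudal eminence UMIs. Adjusted p over the alternatives ran from 4.07e-11 to 0.949 for *Fabp7* and from 0.00079 to 0.992 for *Slc1a3* (edgeR or DESeq2).

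The lists of other cell types were tested the same way. Of 9 Cajal-Retzius markers 6 were higher (median 3.84, with 0 lower by edgeR, by an unadjusted p under 0.05 and by DESeq2). *Nhlh2* was at 50.7 and 24.2 CPM against 2.56 and 2.64 (log2 fold change 3.84 ± 0.450, edgeR adjusted p = 8.67e-05) and at 3.23 without the members' embryo 4 sum and 3.26 without vascular and caudal eminence UMIs. Without the vascular and *Reln*-led clusters 6 of these markers were tested, 1 was higher and 4 lower, and the median was -3.14. The higher one was *Nhlh2*, at 2.60, and the lower ones *Calb2*, *Ebf2*, *Ebf3* and *Reln*. Of 7 mural and fibroblast markers tested 4 were higher (*Pdgfrb* at 4.49 and *Rgs5* at 6.26, and *Kcnj8* and *Vtn*, whose sizes are left out because the Nr2f2-zero embryo 4 sum held 0 UMIs of each, median 4.49), and 0 lower by edgeR, by an unadjusted p under 0.05 and by DESeq2. Without those clusters 1 was tested and not called (2.62), so most of the 7 passed the filter on low counts only through cells of those clusters. Without them 6 of the 9 Cajal-Retzius markers were tested, so some of these also passed that filter only through such cells. The counts and medians of both lists are therefore a description and no test, here and in the comparisons below. Without those clusters no tested marker of either list other than *Nhlh2* was thus called higher.

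None of the 8 endothelial markers passed the filter on low counts. Of 4 caudal eminence markers tested 1 was lower (median -1.12), *Adarb2*, at 65.9 and 27.9 CPM against 88.0 and 93.2 (log2 fold change -0.93 ± 0.223, edgeR adjusted p = 0.0146). Its log2 fold change was -1.66 without the members' embryo 4 sum, and the call was lost without that of embryo 5 (-0.46), without the Nr2f2-zero embryo 5 sum (-0.87), without likely doublets (-0.68), at matched depth (-0.67) and with 3 or more *Nr2f2* UMIs (-0.65), with adjusted p of 9.32e-09 to 0.164 (edgeR or DESeq2). By edgeR 0 of the 4 were higher, also at an unadjusted p under 0.05 and by DESeq2. Of 6 medial eminence markers *Sox6* and *Satb1* (-0.56, not called by DESeq2) were lower (median 0.03), and edgeR called 0 higher, with 2 at an unadjusted p under 0.05 and 0 by DESeq2. *Erbb4*, at 92.7 and 10.999 against 32.1 and 10.3 CPM, was uneven between the embryos and not called (log2 fold change 1.37 ± 0.875, edgeR adjusted p = 0.375). It passed with the embryos as a block (1.18) and with no filter on low counts (1.33), and turned to -0.85 without the members' embryo 4 sum.

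The 1 microglia marker tested, *P2ry12*, had a log2 fold change of -0.45 and the 1 oligodendrocyte precursor marker tested, *Cspg5*, 0.40 (edgeR adjusted p = 0.162), and edgeR and DESeq2 called 0 of both, with *Cspg5* higher at an unadjusted p under 0.05. Of 5 erythroid markers (median -1.76) edgeR called 0, as did an unadjusted p under 0.05 and DESeq2. *Hba-a1* was at 44.2 and 87.3 CPM against 186 and 486 and *Hbb-bt* at 33.3 and 46.9 against 43.7 and 266, both far higher in embryo 5 of the Nr2f2-zero neurons, and with near-identical copies among which reads may be shared. With the embryos as a block *Hba-a1* (-2.81) and *Hbb-bt* (-1.99) passed, *Hba-a1* passed in a fit over the 2 classes only (-2.34), and with no filter on low counts both passed (-2.38 and -1.99). The differences were close to 0 at matched depth (-0.11 and -0.04) and smaller without likely doublets (-0.36 and -0.37), without vascular and caudal eminence UMIs (-0.47 and -0.42) and without the Nr2f2-zero embryo 5 sum (-1.46 and -0.09), with neither gene called in these 4. Neither was called with at least 500 detected genes (-3.04 and -2.93), *Hba-a1* without the members' embryo 5 sum (-2.94) or *Hbb-bt* without the Nr2f2-zero embryo 4 sum (-2.73).

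The second comparison sets the members against the Tfap2d neurons, which fill more of the same *Tafa1*-led cluster and hold *Nr2f2* themselves. Of 12302 genes, 469 were higher in the Nr2f2 neurons (3.81%, edgeR adjusted p under 0.05) and 504 lower (4.1%), with a median of -0.01. With the embryos as a block 730 were higher. Without the members' sum of embryo 4 the counts were 283 and 303, and without that of embryo 5 they were 171 and 258. Without the Tfap2d sum of embryo 4 they were 235 and 363, and without that of embryo 5 they were 174 and 274. Each sum left out thus lowered the counts in both directions. DESeq2 gave 276 and 330, and leaving out neurons with a vascular or caudal eminence UMI gave 176 and 234. With no filter on low counts 797 were lower. Fewer genes were called here than against the Nr2f2-zero neurons in each direction, a difference in counts that was not tested.

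2 neurofilament genes were among the 3 largest rises named by size. *Nefl* (ENSMUSG00000022055, chromosome 14, 68083863 to 68089095) was at 68.0 and 68.2 CPM in the members and 6.34 and 6.46 in the Tfap2d neurons (log2 fold change 3.43 ± 0.289, edgeR adjusted p = 1.99e-05), and *Nefm* (ENSMUSG00000022054, chromosome 14, 68119545 to 68125004) was at 155 and 232 against 24.99 and 23.9 (log2 fold change 3.01 ± 0.305, edgeR adjusted p = 7.4e-05). The NMDA receptor gene *Grin2a* was at 60.1 and 153 against 12.7 and 11.4 CPM (log2 fold change 3.17 ± 0.390, edgeR adjusted p = 0.000331), and at 2.33 without the members' embryo 5 sum. Both member sums were above both Tfap2d sums in these genes. The bicarbonate cotransporter gene *Slc4a4* was at 96.3 and 120.3 against 17.5 and 23.9 CPM (log2 fold change 2.41 ± 0.230, edgeR adjusted p = 5.45e-05), and the GABA-A receptor gene *Gabrg3* was at 56.5 and 85.1 against 13.1 and 17.1 (log2 fold change 2.26 ± 0.283, edgeR adjusted p = 0.000387). *Grb14*, an adaptor gene of insulin receptor signalling, was at 65.9 and 75.5 against 20.1 and 10.3 CPM (log2 fold change 2.24 ± 0.272, edgeR adjusted p = 0.000312). Of the 19 genes of maturing neurons 11 were higher and 1 lower (*Rbfox1*, -0.44), with a median of 0.50. Of the 16 genes of young migrating neurons 9 were lower and 1 higher (*Tubb3*, 0.42), with a median of -1.18. The *Unc5d* limit, on a gene of migrating neurons, applied to the members and not to the Tfap2d neurons (60.8 and 71.9 against 1999 and 2049.7 CPM), and its part in these 2 lists was not tested.

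On the lower side, *Fam135b* was at 9.41 and 7.33 CPM against 78.7 and 120.4 (log2 fold change -3.54 ± 0.297, edgeR adjusted p = 1.97e-05). *Pou3f2* was at 16.6 and 20.5 against 173 and 179 CPM (log2 fold change -3.21 ± 0.163, edgeR adjusted p = 3.22e-07), and *Mpped2* at 26.1 and 28.6 against 164 and 220.4 (log2 fold change -2.79 ± 0.194, edgeR adjusted p = 5.35e-06), so both lay below the Tfap2d as well as the Nr2f2-zero neurons. The receptor phosphatase gene *Ptprt* was at 23.9 and 15.4 against 179.8 and 163 CPM (log2 fold change -3.09 ± 0.331, edgeR adjusted p = 0.000114). *Astn2*, an astrotactin gene of neuronal migration, was at 32.6 and 16.9 against 160.0 and 194 CPM (log2 fold change -2.81 ± 0.234, edgeR adjusted p = 1.97e-05). The homeobox zinc-finger gene *Zfhx4* was at 41.3 and 41.1 against 260.0 and 299 CPM (log2 fold change -2.74 ± 0.170, edgeR adjusted p = 2.04e-06). Each of these 12 genes kept its call without either Tfap2d sum. With *Nr2f2* limits of 1 and 3 UMIs *Mpped2* was at -1.53 and -3.38, *Pou3f2* at -2.18 and -3.83 and *Ptprt* at -1.85 and -3.91 on the log2 scale, and *Astn2* was at -3.56 without likely doublets and -4.05 without the vascular and *Reln*-led clusters. Of 24 projection neuron identity factor genes 11 were lower and 2 higher (*Mef2c* at 1.31 and *Nfix* at 0.75), with a median of -0.40. *Tafa5* was not called here (-0.28, edgeR adjusted p = 0.319).

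Markers of other cell types moved with this comparison as well. Of 7 mural and fibroblast markers tested 5 were higher (*Rgs5* at 4.77, and *Dcn*, *Kcnj8*, *Pdgfrb* and *Vtn*, whose sizes are left out because a Tfap2d sum held 0 UMIs of each, *Dcn* not called by DESeq2), with 10 listed summing to 76.0 and 117 CPM in the members and 4.85 and 3.04 in the Tfap2d neurons, where 4 and 4 of the 10 were detected. Of 9 Cajal-Retzius markers 4 were higher (*Cacna2d2* at 1.63, *Calb2* at 2.19, *Lhx1* at 2.47 and *Trp73* at 1.9998), the 9 summing to 581 and 320 against 301 and 168 CPM, *Reln* the most abundant. For the reason given above, the calls and sizes of the mural and Cajal-Retzius lists are a description and no test. Without the vascular and *Reln*-led clusters *Dcn* was the 1 mural marker tested and was again higher, while 6 Cajal-Retzius markers were tested, *Reln* was lower and the median turned from 1.41 to -1.92. Of 6 intermediate progenitor markers 4 were lower (*Eomes* at -1.79, *Insm1* at -0.98, *Mfng* at -1.86 and *Neurog2* at -1.45, of which DESeq2 called *Mfng* alone), the 6 summing to 91.9 and 103 against 206 and 267 CPM, and of 8 cycling genes 3 were lower (*Hmgb2* at -1.25, *Mki67* at -1.77 and *Top2a* at -2.02), the 8 summing to 185 and 197 against 387 and 472. The 5 erythroid markers summed to 188 and 307 CPM against 210.4 and 5490 and stood apart in embryo 5 of the Tfap2d neurons, *Hbb-bs* the most abundant. By edgeR and DESeq2 0 of these 5 were called (median -3.39), with 4 lower at an unadjusted p under 0.05. Of 4 thalamic markers tested 2 were higher (*Calb2* at 2.19 and *Lhx9* at 2.05, median 0.81), summing to 98.4 and 147 against 128 and 136 CPM, and without the vascular and *Reln*-led clusters *Lhx9* was again higher, *Rora* was lower, *Calb2* turned to -5.14 without a call and the median was -0.80. Of 6 medial eminence markers tested *Satb1* at -1.64 and *Sox6* at -2.12 were lower, and of 4 caudal eminence markers tested *Adarb2* at -1.73 was lower. The part of the progenitor, cycling and erythroid markers in the results was not tested.

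The third comparison is with the Nr4a2 neurons, of which most lie outside the *Tafa1*-led cluster. Of 12302 genes, 753 were higher in the Nr2f2 neurons (6.12%, edgeR adjusted p under 0.05) and 1006 lower (8.18%), again with a median of -0.01. Without the members' sum of embryo 4 the counts were 471 and 648, and without that of embryo 5 they were 467 and 642. Without the Nr4a2 sum of embryo 5 they were 461 and 679, so each of these removals lowered both counts. DESeq2 gave 450 and 661, and leaving out neurons with a vascular or caudal eminence UMI gave 492 higher. *Thsd7a* was at 349.6 and 257 CPM in the members against 18.0 and 24.0 (log2 fold change 3.80 ± 0.241, edgeR adjusted p = 3.2e-07), and at 5.32 without vascular and caudal eminence UMIs. *Nell1* was at 56.5 and 104 against 3.66 and 10.8 CPM (log2 fold change 3.40 ± 0.372, edgeR adjusted p = 3.84e-05), and at 4.41 without the Nr4a2 embryo 5 sum and 4.30 without vascular and caudal eminence UMIs. *Fign*, which encodes a microtubule-severing ATPase, was at 82.5 and 65.3 against 7.65 and 8.09 CPM (log2 fold change 3.18 ± 0.184, edgeR adjusted p = 2.1e-07), and at 4.25 without likely doublets. These 3 were thus raised against both the Nr2f2-zero and the Nr4a2 neurons. The factor gene *Bhlhe22* was at 342 and 405 against 30.3 and 57.9 CPM (log2 fold change 3.03 ± 0.213, edgeR adjusted p = 8.02e-07), and *Pcdh11x* at 86.1 and 136 against 9.64 and 16.8 (log2 fold change 3.02 ± 0.258, edgeR adjusted p = 4.46e-06). *Reln* was at 434 and 194 against 20.3 and 17.4 CPM (log2 fold change 4.02 ± 0.350, edgeR adjusted p = 5.08e-06), at 3.35 without the members' embryo 4 sum, at 2.19 and uncalled without vascular and caudal eminence UMIs, and at -2.80 without the vascular and *Reln*-led clusters, the range of adjusted p being 2.18e-159 to 0.0903 (edgeR or DESeq2).

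Several genes were close to absent from the members and abundant in the Nr4a2 neurons. *Cntnap5b* (ENSMUSG00000067028, chromosome 1, 99772246 to 100490599), of the contactin-associated adhesion proteins, had 9 and 9 UMIs in the members' sums, 6.51 and 6.60 CPM, against 244 and 222 (log2 fold change -5.18 ± 0.173, edgeR adjusted p = 2.76e-09). *Brinp1* (ENSMUSG00000028351, chromosome 4, 68761372 to 68954397) had 9 and 7 UMIs, 6.51 and 5.13 CPM, against 179 and 171 (log2 fold change -4.94 ± 0.210, edgeR adjusted p = 1.85e-08). *Zfp385b* (ENSMUSG00000027016, chromosome 2, 77410622 to 77817706), a zinc-finger gene, had 5 and 1 UMIs, 3.62 and 0.733 CPM, against 84.1 and 91.1 (log2 fold change -5.34 ± 0.550, edgeR adjusted p = 2.24e-05), and its log2 fold change was -6.86 without the members' embryo 4 sum and -4.63 without that of embryo 5. The sizes moved with other alternatives too, *Brinp1* being at -6.69 without likely doublets, -7.79 without vascular and caudal eminence UMIs and -6.48 without the vascular and *Reln*-led clusters, and *Zfp385b* at -3.68 and -6.43 with *Nr2f2* limits of 1 and 3 UMIs and -5.93 without vascular and caudal eminence UMIs. The kainate receptor gene *Grik3* was at 34.0 and 16.1 against 402 and 389 CPM (log2 fold change -4.02 ± 0.191, edgeR adjusted p = 4.01e-08), and at -4.63 without the members' embryo 4 sum. *Shisa9*, an auxiliary subunit gene of AMPA receptors, was at 14.5 and 19.1 against 220.4 and 285 CPM (log2 fold change -3.95 ± 0.204, edgeR adjusted p = 6.97e-08), and at -3.28 when 1 *Nr2f2* UMI sufficed. *Prickle1*, a planar polarity gene, was at 16.6 and 24.2 against 298 and 285 CPM (log2 fold change -3.87 ± 0.177, edgeR adjusted p = 2.88e-08). Of 24 projection neuron identity factor genes 18 were lower and 4 higher (*Cux2* at 1.28, *Etv1* at 1.496, *Lmo4* at 1.24 and *Pou3f1* at 1.4998), with a median of -1.01. Of 23 glutamate receptor and transporter genes 10 were lower by edgeR and 6 by DESeq2, and 3 were higher by both (*Grik2* at 0.75, *Grm8* at 1.94 and *Slc17a6* at 1.80), with a median of -0.36. Of the 19 genes of maturing neurons 6 were higher and 8 lower (median 0.07), and of the 16 genes of young migrating neurons 6 were higher and 2 lower (*Pou3f2* at -0.88 and *Rnd3* at -1.16, median 0.29, *Pou3f2* turning to 0.16 without a call when 1 *Nr2f2* UMI sufficed), so the leaning of both lists against the Nr2f2-zero and Tfap2d neurons was not found here. The limits on *Fezf2* and *Hs3st4*, genes of deep layers, applied to the members and not to the Nr4a2 neurons (*Fezf2* 0 and 0 against 157 and 106 CPM, *Hs3st4* 9.41 and 3.67 against 1099.8 and 1036), and 79 and 82 Nr4a2 neurons but 0 members lay in a cluster with *Prickle1*, *Tle4* and *Cntnap5b* among its leading genes. The part of these limits in the lower genes of this comparison was not tested.

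Against the Nr4a2 neurons each of the 9 Cajal-Retzius markers was higher (median 4.22), summing to 581 and 320 CPM in the members and 39.2 and 29.98 in the Nr4a2 neurons, as were 4 of 7 mural and fibroblast markers tested (*Rgs5* at 6.29 and *Vtn* at 2.51, and *Kcnj8* and *Pdgfrb*, whose sizes are left out because a Nr4a2 sum held 0 UMIs of each), the 10 listed summing to 76.0 and 117 against 6.65 and 36.3. Without the vascular and *Reln*-led clusters 6 of the former were tested, *Reln* was lower and the median was -1.29, and the 1 mural marker tested was not called (1.55). The calls and sizes of both lists are again a description and no test. Of 8 cycling genes 4 were lower (*Ccnb1* at -2.67, *Cenpf* at -1.82, *Hmgb2* at -1.20 and *Top2a* at -1.86, the last not called by DESeq2), summing to 185 and 197 against 339.8 and 464 CPM. The 5 erythroid markers summed to 188 and 307 against 163 and 2669 CPM, again apart in embryo 5 of the compared class, and edgeR called 0 of them, as did an unadjusted p under 0.05 and DESeq2. Of 4 thalamic markers tested 3 were higher (*Calb2* at 4.22, *Lhx9* at 1.75 and *Rora* at 1.17, median 1.46), summing to 98.4 and 147 against 55.2 and 55.2 CPM, and without the vascular and *Reln*-led clusters *Lhx9* and *Rora* were again higher, *Calb2* turned to -4.17 without a call and the median was -0.37. Of 6 medial eminence markers tested *Satb1* at -0.79 and *Sox6* at -1.85 were lower, of 8 radial glia markers tested *Fabp7* at -1.25 was lower, and so was the oligodendrocyte precursor marker *Cspg5* at -0.57, which was not called by DESeq2. Without likely doublets *Cenpf*, *Fabp7* and *Sox6* were not called and turned to 0.46, 0.14 and 0.44. The part of the cycling and erythroid markers in the results was not tested.

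Set side by side, the 15 genes named as higher than in the Nr2f2-zero neurons included 9 that edgeR also called higher than in the Tfap2d neurons and 11 called higher than in the Nr4a2 neurons. *Slit3* had log2 fold changes of 4.01, 1.81 and 2.19 against the Nr2f2-zero, Tfap2d and Nr4a2 neurons, and *Slit2* had 2.79, 0.67 and 2.67. *Thsd7a* (-1.15) and *Fign* (-0.80) were lower than in the Tfap2d neurons, a turn of sign between the comparisons. Of the genes named by list, *Zfpm2*, *Lmo3*, *Cntnap4* and *Tenm1* were higher than in the Nr2f2-zero neurons and lower than in the Nr4a2 neurons (-1.61, -1.23, -0.77 and -1.89). *Epha5* was lower than in the Tfap2d neurons (-0.62) and higher than in the other 2 classes, *Tenm3* higher than in the Tfap2d neurons (0.83) and lower than in the other 2, *Slc17a6* lower than in the Tfap2d (-1.64) and higher than in the Nr4a2 neurons, and *Syt1* higher than in the Tfap2d (0.50) and lower than in the Nr4a2 neurons (-1.37). Of the 15 named as lower, 12 were also lower than in the Tfap2d neurons and 12 lower than in the Nr4a2 neurons. The comparisons share the members' sums, so these counts are not independent of each other.

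The members varied among themselves with their *Nr2f2* count, described here over bins of cells that otherwise met the rule. *Tafa1* stood at 539 and 534 CPM in cells with 1 *Nr2f2* UMI, 1382 and 1996 with 2, 1124 and 2033 with 3 to 4 (23 and 31 cells), and 2691 and 3727 with 5 or more. *Slit3* went from 258 and 281 CPM at 1 UMI to 227 and 333 at 2, 560.1 and 361 at 3 to 4, and 818 and 928 at 5 or more. *Tafa1* and *Slit3* were thus highest in the cells with 5 or more *Nr2f2* UMIs in both embryos. *Mpped2* went the other way, from 340 and 355 CPM at 0 to 142 and 144 at 1, 48.6 and 54.4 at 2, 41.2 and 37.9 at 3 to 4 and 5.83 and 12.7 at 5 or more. *Tafa2* changed less among members, at 1614 and 2562 CPM with 2 UMIs, 1993 and 2339 with 3 to 4, and 1789 and 1849 with 5 or more, above 969 and 1296 with 1. The share of cells in the *Tafa1*-led cluster was 3.08% and 3.32% at 0 *Nr2f2* UMIs, 25% and 23.8% at 1, 57.9% and 63.0% at 2, 65.2% and 67.7% at 3 to 4, and 87.7% and 80.0% at 5 or more. The cells just outside the limit were therefore unlike the members in their main cluster share, and the members with 2 UMIs lay between them and those with more. The bins are ranges of 1 measure and not classes of their own.

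**Figure D3:**
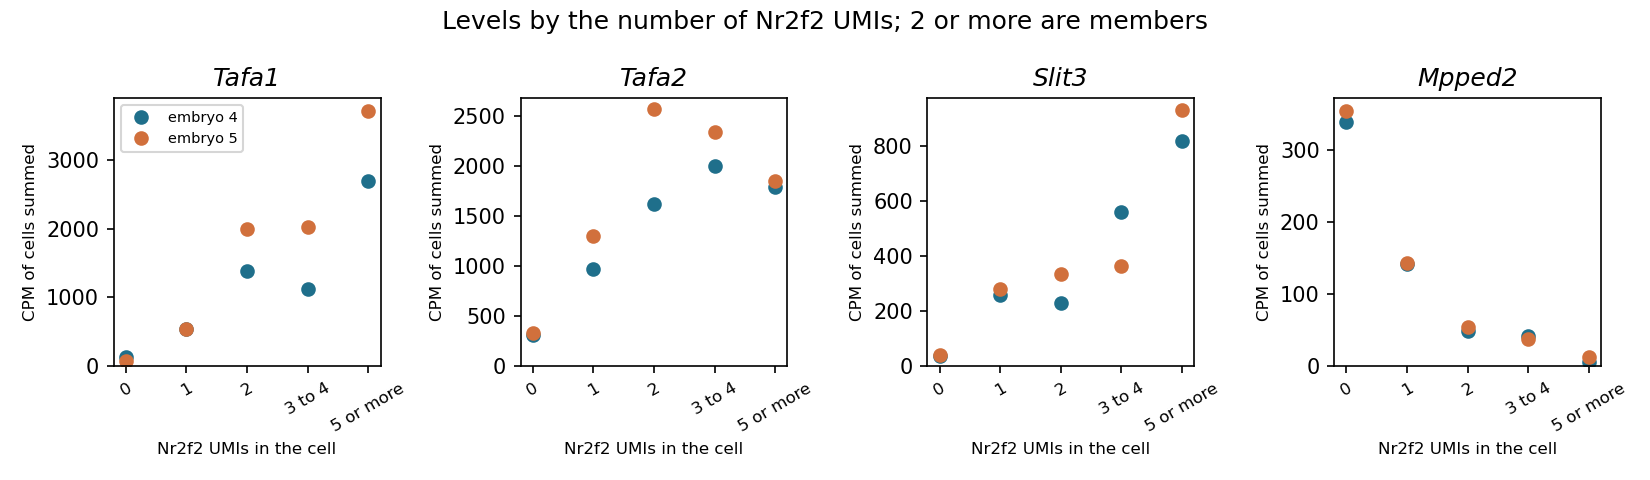
CPM of *Tafa1*, *Tafa2*, *Slit3* and *Mpped2* in cells that met the other limits, by number of *Nr2f2* UMIs, 1 colour per embryo. *Mpped2* falls from 340 and 355 CPM at 0 UMIs to 5.83 and 12.7 at 5 or more, where *Tafa1* reaches 2691 and 3727.

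The members also split by cluster, again as a description. Those in the *Tafa1*-led cluster had *Tafa1* at 2911 and 3972 CPM and *Slit3* at 767 and 782. The 26 and 27 members of other clusters, those of the vascular and *Reln*-led clusters left out, had *Tafa1* at 86.1 and 429.7 CPM and *Slit3* at 236 and 266. *Slit3* was thus higher in the members inside the main cluster, while *Tafa1* leads that cluster, so its difference is set by the split. The main cluster supplied 98.9% and 96.7% of the members' *Tafa1* UMIs and 83.8% and 88.8% of their *Tafa2* UMIs. The 5 and 5 members of the vascular and *Reln*-led clusters had *Reln* at 6651 and 2770.5 CPM and *Tafa1* at 0 in both embryos. Class sums of the Nr2f2 neurons therefore describe mostly, but not only, cells of the *Tafa1*-led cluster.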

How the data were processed

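Members and gene lists were chosen with earlier results of these data known. Per the labels, the authors made the deposited raw UMI counts with Cell Ranger 7.0.0 on mm10 (file header: 7.1.0); whether introns were counted is not given in the sources used here. Barcodes with at least 1000 genes and at most 10% mitochondrial UMIs were kept (Python 3.11.15, numpy 2.4.6, scipy 1.17.1). Likely doublets were marked by simulation (Scrublet's procedure, rate 0.8% per 1000 barcodes) and kept. Clusters came from scanpy 1.11.5 and igraph 0.11.9 (2000 variable genes without the rule's genes, 30 principal components, 20 neighbours, Leiden resolution 1); leading genes were ranked by CPM plus 10. Plots used matplotlib 3.10.9.

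UMIs were added up within each embryo's classes and fitted in 1 model over 4 classes and 8 sums, without a block, by edgeR 4.0.16 in R 4.3.3 (filterByExpr, TMM, quasi-likelihood F test, Benjamini-Hochberg over all genes tested, called at an adjusted p under 0.05), tested on simulated counts first. The standard error is the size of the log2 fold change divided by √F. DESeq2 1.42.0 and the other settings of the closing section were alternatives. Genes of the rule and the label's markers were not tested. Coordinates are RefSeq's for GRCm38.p6, the same assembly as mm10. Intervals are Clopper-Pearson.

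Named genes follow a rule: the 15 called genes with the largest log2 fold change in each direction against the Nr2f2-zero neurons and the 6 against each other class, with at least 50 CPM in both embryos of the higher class and the same direction in both embryos, predicted genes passed over; and up to 4 genes of each list, those with the largest positive and negative values among genes of at least 50 CPM in a class. Sums of the same embryo come from the same animal: deviations from the class means correlated at 0.105, 0.102 and 0.103 between the members and the Nr2f2-zero, Tfap2d and Nr4a2 neurons across 12315 genes. Some gene results are not reported here.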

Additional observations from a re-analysis of the deposited data

How the results depend on the processing

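Of 113 gene results named by the fixed rule, 102 were called. Over 22 settings, 1934 pairs of a gene result and a setting kept the direction and the side of the threshold, 50 lost the call, 21 gained it and 4 changed sign. The sign changes were *Reln* against the Nr2f2-zero neurons (-3.40) and the Nr4a2 neurons (-2.80) without the vascular and *Reln*-led clusters, a setting added after seeing the data, *Fabp7* with 1 *Nr2f2* UMI enough (0.31), and *Erbb4* without the members' embryo 4 sum (-0.85, with 1 sum left out at a time from -0.85 to 2.33). The cause was not tested. Called genes of the lists outside that rule, some of them named in the text, gave 369 further results, of which 177 kept the call in every setting. Their pairs with a setting kept it in 5509 cases, lost it in 754, changed sign in 13 and could not be tested in 91; DESeq2 lost 41 of the 369 calls.

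Leaving out 1 sum leaves a lone sum, assumed to vary like the other classes, and fewer samples. Against the Nr2f2-zero neurons the counts then ranged from 460 to 533 higher and 445 to 520 lower, against the Tfap2d neurons from 171 to 283 and 258 to 363, and against the Nr4a2 neurons from 461 to 503 and 642 to 758. DESeq2 gave 461 lower against the Nr2f2-zero, 276 higher and 330 lower against the Tfap2d, and 450 higher and 661 lower against the Nr4a2 neurons. Without neurons holding a UMI of a vascular or caudal eminence marker (74 and 85 members left) the counts were 502 and 473, 176 and 234, and 492 higher. Nr2f2-zero neurons drawn to the members' depth gave 512 higher, and no filter on low counts gave 797 lower against the Tfap2d neurons. With the embryos as a replicate block 730 genes were higher than in the Tfap2d neurons, *Lhx2*, *Rora*, *Cntnap5c*, *Erbb4*, *Hba-a1* and *Hbb-bt* passed with it, and it changed no other call of a gene named by the rule and moved no other count by over 1.5 times.

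The share of cells, 1.06%, moved to 1.12% with at least 2000 detected genes, 1.10% at a 5% mitochondrial limit, 1.10% without likely doublets, 1.64% and 0.764% with *Nr2f2* limits of 1 and 3, and 1.22% with each barcode thinned to 5000 UMIs. It was 1.03% to 1.08% in single embryos. The main cluster's share of members, 73.3%, was 74.6% at resolution 0.5 and 64.0% at resolution 2, and 72.9% to 73.7% in single embryos. Depth limits genes with few UMIs in the members' sums of 1381528 and 1363766 UMIs. With 2 embryos of 1 genotype, no value here bears on variation among litters or lines.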
